A study of Bubalus bubalis with 6 samples.

Results

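The circRNAs described here are those listed under 5 host genes that are known from neutrophils and monocytes, namely ITGAM, S100A9, ANXA3, NLRC4 and NFAM1. They were taken as all entries of the circRNA expression table that carry one of these host gene names, which gave 83 of 57308 circRNAs and 5 of 8611 host genes. Of these 83 circRNAs, 36 came from ITGAM, 20 from S100A9, 18 from ANXA3, 6 from NLRC4 and 3 from NFAM1. The 5 host genes were chosen by what the genes are known for and by the reads of their circRNAs in these pregnant and non-pregnant buffaloes, so the differences between the groups are given below as a description of these libraries, with no test.

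Blood was drawn from the jugular vein of 3 pregnant buffaloes (P-Buffalo) and 3 non-pregnant buffaloes (C-Buffalo) of the Jianghuai breed, aged 3 to 5 years, with 1 library per animal. Both groups had their oestrus synchronised with a pair of prostaglandin analogue (D-cloprostenol) injections. The pregnant buffaloes were artificially inseminated, were bled 25 days later and were found pregnant by ultrasound on day 60, whereas the non-pregnant buffaloes were bled on day 25 without insemination. Insemination and pregnancy therefore cannot be told apart in these data. Ribosomal RNA was depleted and linear RNA was digested with RNase R before sequencing, and each value is a number of reads across a back-splice junction, the join between a downstream and an upstream point of a transcript that marks a circle.

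Neutrophils and monocytes are the phagocytes of blood, which leave the vessel by integrin-mediated adhesion, sense microbial products and release inflammatory proteins. A circRNA forms when the spliceosome joins a downstream splice donor to an upstream splice acceptor, while an intronic circRNA (ciRNA) is a spliced-out intron that kept a closed form instead of being degraded. The number of circles from a gene in whole blood depends on the number of cells that express it and on the RNA in each cell, and in these bulk samples fewer cells of a type and less RNA per cell cannot be told apart.

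The counts of a library summed to 815851 to 1298753 in pregnant buffaloes and to 931921 to 1141748 in non-pregnant buffaloes. Levels are given in CPM, reads scaled to a common library total and by TMM factors, and on this scale a count of 0 for a circRNA allows up to 2.11 to 6.90 CPM, the highest of these in non-pregnant replicate 2 and for counting error only. Non-pregnant replicate 2 stood apart: 12336 circRNAs were detected in it, against 17446 to 26802 in the other libraries, its scaling factor (TMM) over circRNAs was 0.467, against 1.09 to 1.25, and the leading circRNA of a host gene held a median of 88.8% of that gene's reads, against 58.3 to 61.1%. Of the 23 other neutrophil markers examined, 14 had circRNAs, with a summed level of 316 to 496 CPM in pregnant and 449 to 555 CPM in non-pregnant buffaloes. Genes of this and all other lists were looked up by gene symbol alone. A gene that is listed under another name, such as a LOC identifier, or that buffaloes lack thus counts as having none. By symbol the circles cover the neutrophil marker list only in part, since the defining receptors CXCR1, CXCR2, FPR1 and FPR2 and the granule elastase gene ELANE had none. Only 3 of 17 other monocyte markers had circRNAs, at a summed level of 47.8 to 184 CPM in pregnant and 89.0 to 222 CPM in non-pregnant buffaloes, and CD14 and LYZ had none. The name of these host genes thus rests on what is known of the genes, and the circRNA data do not place the circles in a cell type.

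The 83 circRNAs together had 4375 reads, 1592 in pregnant and 2783 in non-pregnant buffaloes, which is 0.0705% of all reads in the table. They numbered 394, 736 and 462 in pregnant replicates 1 to 3 and 824, 1283 and 676 in non-pregnant replicates 1 to 3. Most circles of these genes were rare: 42 of 83 (50.6%) were read in 1 library only, against 56.5% of all circRNAs, and 8 (9.64%) were read in all 6 libraries, against 7.96% of all. The leading circle of each of the 5 host genes accounted for 2468 reads together, or 56.4% of the reads. Intronic circles made up 25 of the 83 (30.1%), against 13.7% of all circRNAs, and 19 of these 25 came from S100A9. Of the 83, 28 (33.7%) were read only in pregnant, 24 (28.9%) only in non-pregnant and 31 (37.3%) in both groups of buffaloes, near the shares of 37.9, 25.7 and 36.3% over all circRNAs.

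Across the whole table, edgeR's quasi-likelihood test with Benjamini-Hochberg adjustment called 0 of 4137 host genes (0.0%) where a call needed a log2 fold change of 1 or more in size and an adjusted p below 0.05. By the unadjusted p 227 passed (5.49%), 0.967% of all host genes as higher and 4.52% as lower in pregnant buffaloes. DESeq2 called 7 of 8401 host genes and limma 1 of 4137, none of them among the 5, all of which were tested. In simulated data the edgeR fit of host genes found 0.0, 1.59 and 30.0% of planted 2-, 4- and 8-fold changes by the adjusted p. These are percentages of the planted changes that passed the filter on low counts (59 of 67, 63 of 67 and 60 of 66). A lack of calls, here and below, thus does not show a lack of change. When the circles of a gene were summed, ITGAM, S100A9, ANXA3 and NLRC4 had fitted log2 fold changes below 0 and NFAM1 one above 0. In 1 of the 5 genes (NFAM1) every pregnant library lay above every non-pregnant library, as in 7.06% of all host genes tested, and in none did every pregnant library lie below, as in 4.47% of all.

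**Figure D1:**
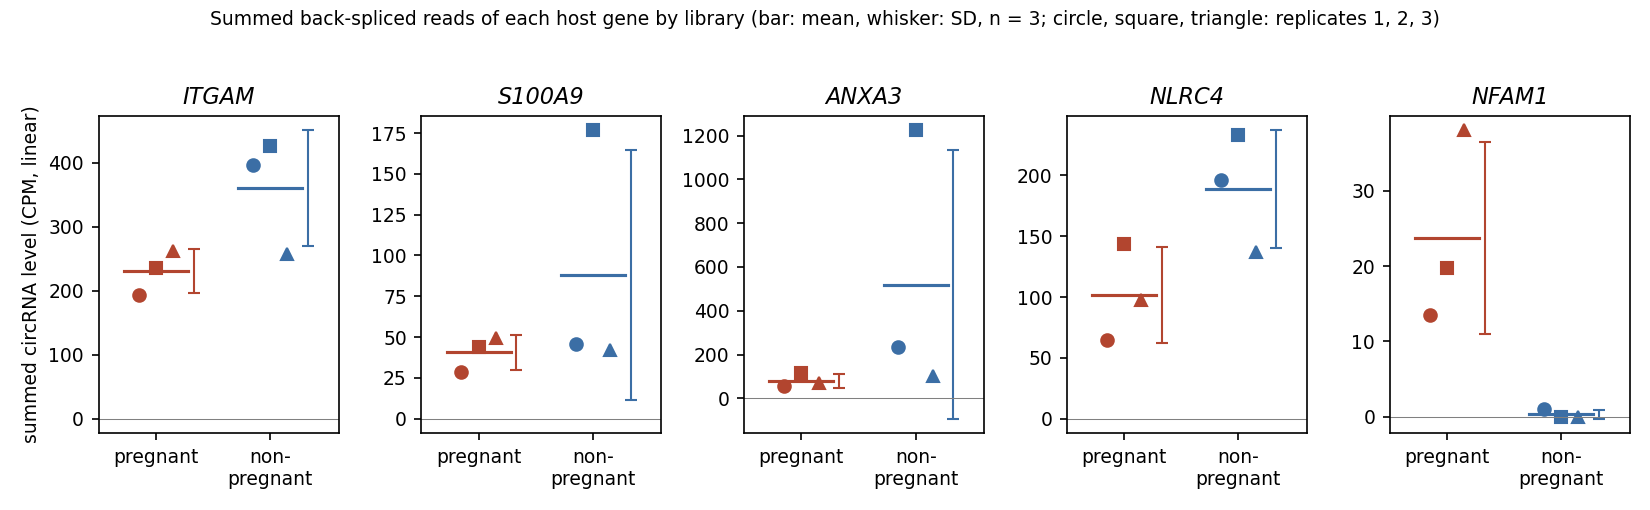
Summed circRNA level of each host gene in CPM, scaled by TMM over host genes, in the 3 pregnant (left) and 3 non-pregnant (right) libraries, with the group mean as a bar and the SD as a whisker. The non-pregnant points spread widely for S100A9 and ANXA3 because replicate 2 is high (177 and 1223 CPM), and the groups separate only for NFAM1.

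ITGAM encodes the integrin alpha M chain (CD11b), which pairs with CD18 to form the receptor by which neutrophils and monocytes adhere and take up complement-coated particles. Its 36 circRNAs, 31 exonic and 5 intronic, lay on the minus strand of NC_037568.1 between 15200188 and 15235615 and held 1723 reads. ITGAM had 215, 310 and 235 reads in pregnant and 374, 266 and 323 reads in non-pregnant buffaloes. At the level of the gene this was 194, 235 and 263 CPM in pregnant and 396, 427 and 257 CPM in non-pregnant buffaloes (means 231 ± 34.7 and 360 ± 90.7, SD, n = 3 each). The groups overlapped, since pregnant replicate 3 lay above non-pregnant replicate 3, and the fitted log2 fold change was -0.64 (standard error 0.56). The transcript behind these circles, XM_006070383, carries the symbol LOC102396526 in the newer RefSeq annotation (NDDB_SH_1). Reads of the closely related alpha chains ITGAX (639 circRNA reads) and ITGAD (no circRNA under this symbol) could be shared with it.

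The reads of ITGAM gathered near the downstream end of the gene and in a stretch further upstream. Its leading circle, circRNA14072 (15202398 to 15204054, 3 exons, near the downstream end of the gene), held 49, 126 and 82 reads in pregnant and 263, 249 and 118 reads in non-pregnant buffaloes. Non-pregnant replicates 1 and 2 were high for this circle, while non-pregnant replicate 3 (84.4 CPM) lay beside pregnant replicates 2 and 3 (88.7 and 80.6 CPM). The fitted log2 fold change was -2.11 (standard error 0.93), and it was -1.25 without non-pregnant replicate 2 and -1.34 with library totals implied by the deposited depth-scaled values (SRPBM). The next circle, circRNA9927 (15221533 to 15229271, 8 exons), stood the other way, with 39, 48 and 45 reads in pregnant and 14, 2 and 39 reads in non-pregnant buffaloes. In CPM all 3 pregnant libraries (31.9, 33.8 and 44.2) lay above the non-pregnant ones (13.1, 4.60 and 27.9), as in 8.16% of all circRNAs tested, with a fitted log2 fold change of 1.23 (standard error 0.93). Leaving out non-pregnant replicate 2 gave 0.79 for circRNA9927.

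circRNA14072 made up 22.8, 40.6 and 34.9% of the ITGAM reads in pregnant libraries and 70.3, 93.6 and 36.5% in non-pregnant libraries. In non-pregnant replicates 1 and 2 the gene was thus read mostly through 1 circle, while non-pregnant replicate 3 had a share inside the pregnant range. The 16 exonic circles that end at or upstream of the downstream end of circRNA9925 (15220865) were grouped after their values had been seen. They held 120, 151 and 112 reads in pregnant and 79, 16 and 176 reads in non-pregnant buffaloes, or 55.8, 50.8 and 48.9% and 21.2, 6.02 and 55.9% of the exonic ITGAM reads. The other 15 exonic circles had 95, 146 and 117 reads in pregnant and 293, 250 and 139 in non-pregnant buffaloes, and without circRNA14072 only 46, 20 and 35 and 30, 1 and 21.

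**Figure D2:**
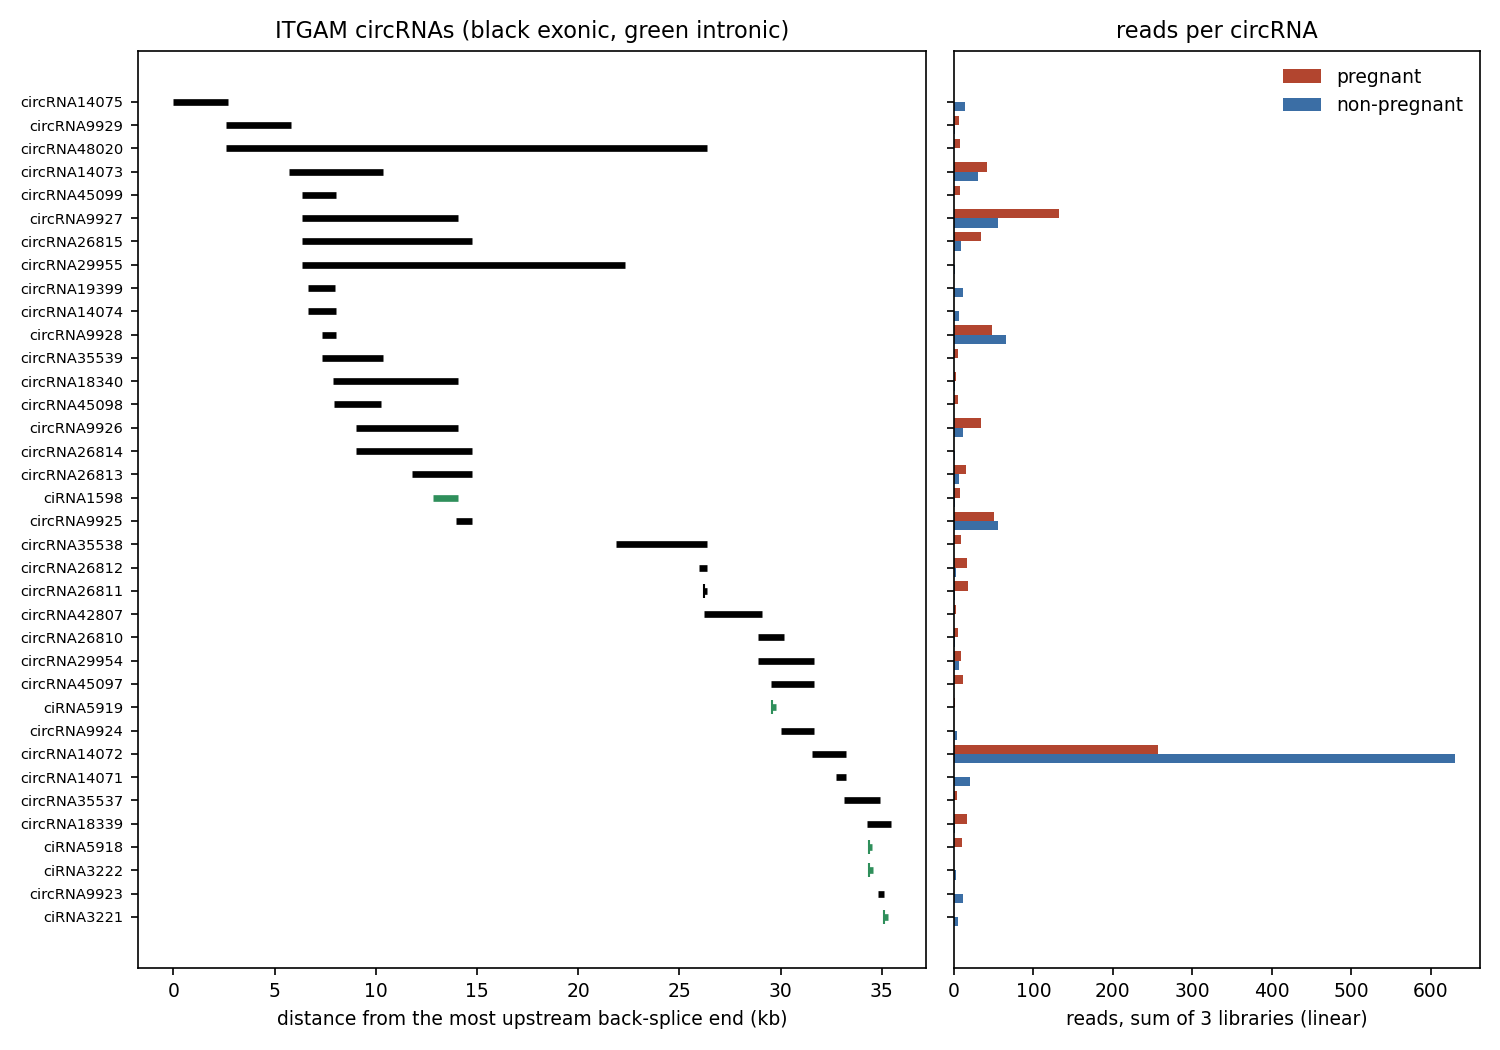
The 36 ITGAM circRNAs drawn as bars from their upstream to their downstream end, in kb from the most upstream back-splice end (left, exonic in black and intronic in green), with the reads of each summed over 3 pregnant and 3 non-pregnant libraries (right, linear axis). circRNA14072 near the downstream end holds 257 pregnant and 630 non-pregnant reads, while circRNA9927 further upstream holds more reads in pregnant libraries.

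Several ITGAM circles shared an end. The upstream end 15229271 served 4 circles, among them circRNA9927 and circRNA26815 (9 exons, 18, 16 and 0 reads in pregnant and 0, 0 and 9 in non-pregnant buffaloes). This end had 57, 72 and 45 reads in pregnant and 14, 2 and 50 in non-pregnant buffaloes, so the groups overlapped in reads. circRNA9926 (4 exons) shared the downstream end of circRNA9927 (15221533) and had 7, 16 and 11 reads in pregnant and 5, 2 and 5 in non-pregnant buffaloes. The downstream end 15209252 also served 4 circles, with 51 reads in pregnant and 5 in non-pregnant buffaloes. Pregnant replicate 2 had no read of any of them, and all 5 non-pregnant reads were in replicate 3, so the groups overlapped. The most read of them, circRNA26811 (1 exon), had 4, 0 and 14 reads in pregnant and 0, 0 and 2 in non-pregnant buffaloes. circRNA26813 (3 exons) had 15 reads in pregnant replicate 2 and 6 in non-pregnant replicate 3. Each of these smaller circles was missing from at least 1 library except circRNA9926. The reads of the small 2-exon circles circRNA9925 (16, 14 and 21 in pregnant, 18, 4 and 34 in non-pregnant) and circRNA9928 (7, 9 and 32 in pregnant, 10, 5 and 50 in non-pregnant) overlapped between the groups, with fitted log2 fold changes of -0.23 and -0.40. circRNA14073 (7 exons) had 28, 14 and 0 reads in pregnant and 9, 0 and 21 in non-pregnant buffaloes. circRNA14071, which shares its downstream end with circRNA14072, was read only in non-pregnant buffaloes, with 14 reads in replicate 1 and 6 in replicate 3.

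S100A9 encodes a calcium-binding protein that, with its partner S100A8, is among the most abundant proteins of the neutrophil cytosol. Its 20 circRNAs were nearly all intronic, 19 of 20, and lay within 1163 bp on the minus strand of NC_037550.1 (16821504 to 16822666). S100A9 had 32, 58 and 44 reads in pregnant and 43, 110 and 53 reads in non-pregnant buffaloes, or 28.8, 44.0 and 49.2 CPM and 45.5, 177 and 42.1 CPM (means 40.7 ± 10.6 and 88.1 ± 76.7, SD, n = 3 each). Apart from non-pregnant replicate 2 the libraries lay in 1 range, and the fitted log2 fold change of -1.11 (standard error 0.94) was -0.10 without that library. The partner gene S100A8 had 3 circRNAs with 3, 23 and 0 reads in pregnant and 17, 5 and 7 reads in non-pregnant buffaloes.

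A single intron gave 334 of the 340 S100A9 reads. This intron (16822367 to 16822666, 300 bp) was the source of 18 circles, which all shared the upstream end 16822666 and differed in where they closed, from 0 to 47 bases before the downstream end of the intron. Among all circRNAs 7219 introns had an intronic circRNA, with a median of 1 circle, 0.332% had at least 5, and no other intron had as many as 18. By shared upstream end the next highest number in the table was 16. The intron was read at 32, 58 and 39 reads in pregnant and 43, 110 and 52 reads in non-pregnant buffaloes, through 6, 7 and 5 circles in pregnant and 6, 4 and 10 circles in non-pregnant libraries, and 9 of the 18 circles were read in 1 library only.

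The most frequent closing point was that of ciRNA85 (16822375 to 16822666, 292 bp), 8 bases before the end of the intron. ciRNA85 had 7, 19 and 7 reads in pregnant and 6, 103 and 19 reads in non-pregnant buffaloes, so that 103 of its 161 reads came from non-pregnant replicate 2, and its fitted log2 fold change of -3.26 (standard error 1.44) was -0.18 without that library. The other 17 circles of the intron had 25, 39 and 32 reads in pregnant and 37, 7 and 33 reads in non-pregnant buffaloes. Non-pregnant replicate 2 was thus highest for 1 closing point and lowest for the sum of the others. Closing points within 3 bases of that of ciRNA85 held 219 reads. The others of at least 20 reads were ciRNA2048 (9, 10 and 0 in pregnant, 0, 2 and 0 in non-pregnant), ciRNA87 (0, 7 and 11 in pregnant, 9, 0 and 3 in non-pregnant), ciRNA89 (1, 11 and 0 in pregnant, 11, 0 and 7 in non-pregnant) and ciRNA2049 (0, 0 and 12 in pregnant, 0, 2 and 6 in non-pregnant). Each was absent from at least 1 library of each group, and the groups overlapped for all 4 in reads. Outside this intron S100A9 had 1 exonic circle, circRNA46430, with 5 reads in pregnant replicate 3, and 1 read of ciRNA2802 in non-pregnant replicate 3.

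**Figure D3:**
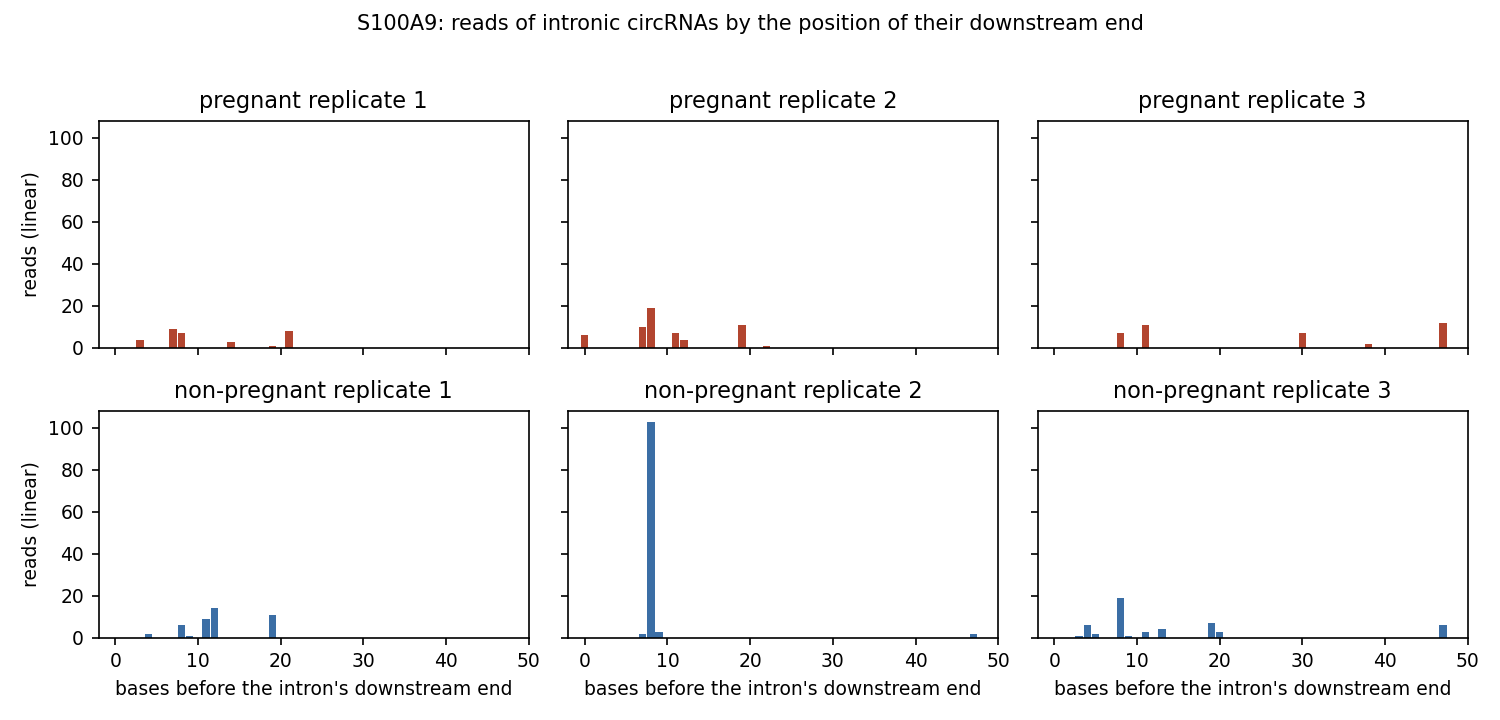
Reads of the 18 circles of the S100A9 intron by where they close, in bases before the downstream end of the intron, for each pregnant (top) and non-pregnant (bottom) library on linear axes. Closing points scatter between 0 and 47 bases in 5 libraries, while in non-pregnant replicate 2 ciRNA85, at 8 bases, holds 103 of 110 reads.

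ANXA3 encodes annexin A3, a calcium-dependent phospholipid-binding protein of neutrophil granules. Its 18 circRNAs were all exonic and spanned 24252228 to 24310299 on the minus strand of NC_037551.1, with 1386 reads. ANXA3 had 60, 153 and 62 reads in pregnant and 221, 762 and 128 reads in non-pregnant buffaloes, or 54.1, 116 and 69.3 CPM and 234, 1223 and 102 CPM (means 79.9 ± 32.4 and 520 ± 613, SD, n = 3 each). It was the lowest of the 5 genes in fitted log2 fold change, at -2.70 (standard error 0.80), yet the groups overlapped between pregnant replicate 2 and non-pregnant replicate 3, and the value was -1.05 without non-pregnant replicate 2.

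The leading ANXA3 circle was circRNA7008 (24268172 to 24273570, 2 exons), with 0, 112 and 50 reads in pregnant and 147, 540 and 84 reads in non-pregnant buffaloes. Its 0 in pregnant replicate 1 was matched by circRNA37114, which starts 1 bp away (24268173), ends at the same base and had 42 reads in that library and none in the other 5. Summed, the pair had 42, 112 and 50 reads in pregnant and 147, 540 and 84 reads in non-pregnant buffaloes, a fitted log2 fold change of -3.21 (standard error 1.17), against -3.48 (standard error 1.71) for circRNA7008 alone. The value for circRNA7008 was -1.22 without non-pregnant replicate 2 and -2.18 with library totals implied by SRPBM. ANXA3 held 2 further pairs of this kind, circRNA24860 with circRNA13252 and circRNA7010 with circRNA19915, and in all 3 pairs both flanking introns were also listed 1 bp apart. Over all host genes there were 3923 exonic pairs with a common end and starts 1 bp apart, 71.2% of them with flanking introns so listed, and in 0.0% of the libraries with reads of a pair were both members read. A count of 0 for a member of such a pair is thus given here with the reads of its partner.

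A further set of ANXA3 circles reached the most upstream back-splice end of the gene, 24310299. The 4 circRNAs with this end (circRNA24860, circRNA13252, circRNA7010 and circRNA19915, with 3 or 4 exons) had 0, 0 and 0 reads in pregnant and 21, 220 and 13 reads in non-pregnant buffaloes. No pregnant library had a read of this end and every non-pregnant library had some, a pattern noticed among the members and given as a description. How many upstream ends of other host genes show the same was not counted, so the pattern is not given as particular to ANXA3. With 3 counts over the group in place of 0, the pooled reads, scaled by library totals without TMM, were 87.4-fold lower in pregnant buffaloes. They were 16.8-fold lower when non-pregnant replicate 2, which held 220 of the 254 reads as circRNA19915, was left out. These folds allow only for counting error in the 0 and leave out the spread between animals. Among the other circles, circRNA7007 (2 exons) had 0, 12 and 5 reads in pregnant and 34, 0 and 8 reads in non-pregnant buffaloes. circRNA34242, which shares the downstream end of circRNA7008, had 14, 3 and 0 reads in pregnant and none in non-pregnant buffaloes. circRNA24859, with the same downstream end, had 7 reads in pregnant replicate 3 and 6 in non-pregnant replicate 3.

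**Figure D4:**
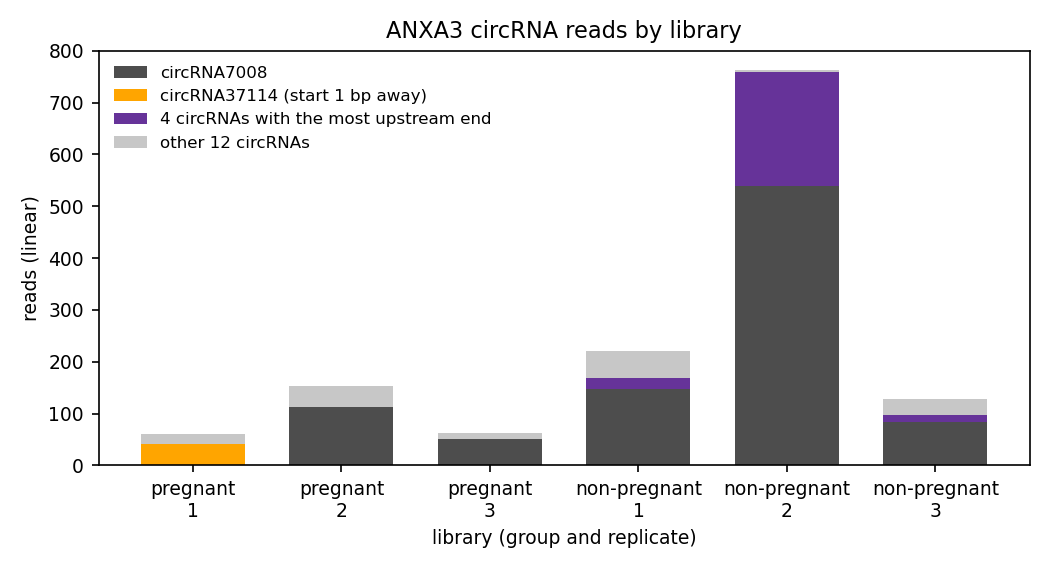
Reads of the ANXA3 circRNAs in each pregnant (left) and non-pregnant (right) library, stacked on a linear axis as circRNA7008, circRNA37114, the 4 circRNAs with the most upstream end and the other 12. In pregnant replicate 1 circRNA37114 (42 reads) stands in place of circRNA7008, and the most upstream end appears in the 3 non-pregnant libraries with 21, 220 and 13 reads.

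NLRC4 encodes the scaffold of the inflammasome that is assembled when NAIP proteins bind bacterial flagellin or secretion system components. Its 6 circRNAs spanned 14774105 to 14779611 on the minus strand of NC_037556.1 and had 72, 189 and 87 reads in pregnant and 185, 145 and 172 reads in non-pregnant buffaloes. In CPM the gene stood at 64.9, 144 and 97.2 in pregnant and at 196, 233 and 137 in non-pregnant buffaloes (means 102 ± 39.5 and 188 ± 48.5, SD, n = 3 each). The groups overlapped by a narrow margin, between pregnant replicate 2 and non-pregnant replicate 3, and the fitted log2 fold change was -0.88 (standard error 0.70).

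Nearly all NLRC4 reads belonged to 2 circles with a common upstream end (14778133). The shorter, circRNA617 (14777722 to 14778133, 2 exons), had 21, 49 and 25 reads in pregnant and 146, 137 and 73 reads in non-pregnant buffaloes. The longer, circRNA616 (14774105 to 14778133, 4 exons), had 49, 123 and 60 reads in pregnant and 39, 8 and 70 reads in non-pregnant buffaloes. Every pregnant library lay below every non-pregnant library for circRNA617 in CPM (17.2, 34.5 and 24.6 against 137, 315 and 52.2), as in 3.87% of all circRNAs tested, with a fitted log2 fold change of -2.72 (standard error 1.01), whereas the groups overlapped for circRNA616, at 0.81 (standard error 0.85). Without non-pregnant replicate 2 these values were -1.90 for circRNA617 and 0.49 for circRNA616, and with library totals implied by SRPBM the value for circRNA617 was -1.93.

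Among the reads of both circles, circRNA617 took 30.0, 28.5 and 29.4% in pregnant libraries (95% Wilson intervals 20.5 to 41.5, 22.3 to 35.6 and 20.8 to 39.8%) and 78.9, 94.5 and 51.0% in non-pregnant libraries (72.5 to 84.2, 89.5 to 97.2 and 42.9 to 59.1%). The share averaged 29.3 ± 0.762% in pregnant and 74.8 ± 22.0% in non-pregnant buffaloes (SD, n = 3 each). The longer circle led in every pregnant library, and the shorter one led in non-pregnant replicates 1 and 2 and held about as many reads as the longer in replicate 3. This share does not depend on how the libraries were scaled. Over 1295 pairs of exonic circles of a host gene with 1 common end, at least 100 reads each and 20 reads for the pair in every library, the share of the shorter was lower in every pregnant library in 169 (13.1%) and higher in 32 (2.47%), and 18 had a difference of the means as low as that of NLRC4. Without non-pregnant replicate 2 it was lower in every pregnant library in 309 of the 1295. The length of circles also moved with the libraries: circles of 4 or more exons held 27.3, 24.1 and 27.7% of exonic reads in pregnant and 16.1, 26.6 and 24.8% in non-pregnant libraries, and the part of this in the NLRC4 share was not tested.

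**Figure D5:**
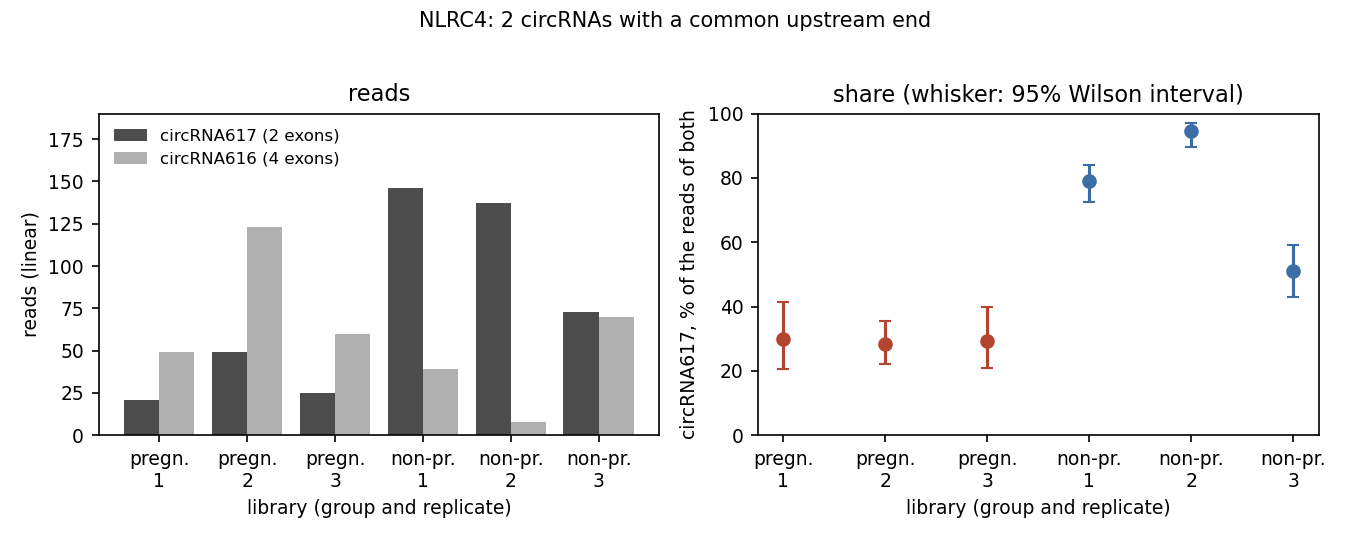
Reads of the NLRC4 circles circRNA617 and circRNA616 (left) and the percentage of their summed reads held by circRNA617 with its 95% Wilson interval (right), in the 3 pregnant and then the 3 non-pregnant libraries. The share sits at 28.5 to 30.0% in pregnant libraries and at 51.0 to 94.5% in non-pregnant libraries.

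The smaller NLRC4 circles had few reads. circRNA20553 (14774105 to 14775019, 2 exons), which shares the downstream end of circRNA616, had 2, 0 and 2 reads in pregnant and 0, 0 and 19 reads in non-pregnant buffaloes, and circRNA45040, which starts 1 bp away, had 13 reads in pregnant replicate 2 only. ciRNA4056, which shares the downstream end of circRNA617, had 10 reads in non-pregnant replicate 3. Among 11 other inflammasome genes only 4 had circRNAs and 1 was tested. NAIP, which encodes the partner that recognises the bacterial ligand, had 165, 412 and 139 reads in pregnant and 479, 155 and 433 reads in non-pregnant buffaloes, with overlapping groups and a fitted log2 fold change of -0.83 (standard error 0.59). The sensors NLRP1 (0, 0 and 0 reads in pregnant, 0, 208 and 13 in non-pregnant) and NLRP3 (0, 5 and 1 in pregnant, 7, 0 and 19 in non-pregnant) and the cytokine gene IL18, with 2 reads in non-pregnant replicate 2, did not pass the filter of the fit.

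NFAM1 encodes a transmembrane receptor that signals through an immunoreceptor tyrosine-based activation motif (ITAM) and was described as an activator of NFAT. It was the only one of the 5 genes with more reads in pregnant buffaloes, 15, 26 and 34, against 1, 0 and 0 in non-pregnant buffaloes, or 13.5, 19.7 and 38.0 CPM against 1.06, 0.0 and 0.0 CPM. The groups did not overlap. Pooled over the animals of a group and scaled by library totals without TMM, the reads were 72.7 times higher in pregnant buffaloes. The exact 95% interval of 12.6 to 2908 covers counting error only, leaves out the spread between animals and is no test of the groups. NFAM1 passed the filter on low counts through its pregnant libraries, so that its place among the genes tested already depends on this difference. With 76 reads in all it was by far the least read of the 5 genes.

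The 3 NFAM1 circles lay on the plus strand of NC_037548.1 and began within 3 bp of each other, at 6858549 or 6858552. circRNA2970 (6858549 to 6860170, 2 exons) had 0, 12 and 23 reads in pregnant and 1, 0 and 0 reads in non-pregnant buffaloes. circRNA37212, which ends at 6865643 and holds 3 exons, had 15, 9 and 0 reads in pregnant buffaloes and none in non-pregnant ones. circRNA39612, with the same end and exon number, had 0, 5 and 11 reads in pregnant buffaloes and none in non-pregnant ones. As a sum circRNA37212 and circRNA39612 were read in every pregnant animal, at 15, 14 and 11 reads. With 3 counts over the group in place of 0, their pooled reads, scaled by library totals without TMM, were 12.9-fold higher in pregnant buffaloes. This fold allows only for counting error in the 0 and leaves out the spread between animals. None of the 3 circles passed the filter on low counts, so the difference rests on the gene as a whole. Of 14 other ITAM adaptors and kinases 9 had circRNAs, 8 were tested and 0 were called, 5 fitted above 0 and 3 below, with a summed level of 3320 to 4924 CPM in pregnant and 2257 to 4145 CPM in non-pregnant buffaloes.

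At the level of single circles, 9 of the 83 passed edgeR's filter on low counts, of which 3 had a fitted value above 0 and 6 below, with a median log2 fold change of -0.40, against 0.05 over all 8261 circRNAs tested. As these 9 were chosen with their reads known and through the filter, that median supports nothing further. edgeR's quasi-likelihood test with Benjamini-Hochberg adjustment called 0 of the 8261 (0.0%). By the unadjusted p 321 passed (3.89%, of which 1.43% higher and 2.46% lower in pregnant buffaloes). DESeq2 called 154 of the 20684 circRNAs to which it gave an adjusted p, and limma 11 of 8261. Of the 83, only 32 and 9 were tested in these fits, and none of them was called. In simulated data the edgeR fit of circRNAs found 0.0% of planted 2-, 4- and 8-fold changes by the adjusted p, among those that passed the filter.

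The other genes of the same families and cells were compared over lists written down with the results known. None of the genes tested in any of these lists was called by edgeR. In the neutrophil list without the members 6 genes were tested, 2 fitted above 0 and 4 below, with a median log2 fold change of -0.12, against 0.01 over all host genes. LTF, the gene of the granule protein lactoferrin, had 32, 199 and 64 reads in pregnant and 115, 17 and 105 in non-pregnant buffaloes, and NCF1, a subunit of the phagocyte NADPH oxidase, had 59, 97 and 30 reads in pregnant and 99, 211 and 47 in non-pregnant buffaloes. Both overlapped between the groups, with log2 fold changes of 0.11 (standard error 0.91) for LTF and -1.58 (standard error 0.89) for NCF1, as did the Src family kinase gene LYN (log2 fold change -0.12, standard error 0.69) and the collagenase gene MMP8 (-0.12, standard error 1.20). Among the other annexins ANXA5 (-0.18, standard error 0.60), ANXA11 (-0.21, standard error 0.61) and ANXA1 (-0.35, standard error 1.14) were tested, against -2.70 for ANXA3, and the differences between these genes were not tested. In the list of CD18 integrins and adhesion genes without ITGAM 5 genes were tested, 3 fitted above 0 and 2 below. ITGAL fitted at 0.20 (standard error 0.48), ITGAX at -0.61 (standard error 0.80) and TLN1, with 69 reads, at 1.92 (standard error 1.40). Only for TLN1 in this list did every pregnant library lie above every non-pregnant one, as in 7.06% of all host genes tested.

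Markers of other blood cells were compared in the same way, and none was called. Of 12 platelet markers 8 had circRNAs, with a summed level of 329 to 664 CPM in pregnant and 999 to 1065 CPM in non-pregnant buffaloes, and in 2 of the 5 tested (CLEC1B and SELP) every pregnant library lay below every non-pregnant one, as in 4.47% of all host genes tested. The part of this in the levels of the 5 host genes was not tested. The summed levels of 8 of 15 T cell markers (1628 to 2797 CPM in pregnant, 2215 to 4420 CPM in non-pregnant), 8 of 10 B cell markers (358 to 648 and 270 to 744 CPM) and 8 of 14 erythroid markers (1490 to 2516 and 765 to 2113 CPM) overlapped. By gene symbol, markers of NK cells and eosinophils were nearly absent, with 1 of 10 and 1 of 8 genes giving any circle. Whether the missing genes were listed under other names was not checked.

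The 4 genes with lower fitted values ran together over the 6 libraries more than with NFAM1. That order follows in part from the grouping, which was made by fitted values in the same libraries. Pearson's r of log2 CPM was 0.93 between S100A9 and ANXA3, 0.89 between ITGAM and NLRC4, 0.88 between ITGAM and ANXA3, 0.87 between ANXA3 and NLRC4, 0.77 between ITGAM and S100A9 and 0.73 between S100A9 and NLRC4, and -0.68 to -0.47 between NFAM1 and the other 4. The points are the 6 libraries that also chose the genes, and non-pregnant replicate 2 is the extreme one for S100A9 and ANXA3, so these values are a description with no p. Over the 4136 other host genes, r was at least 0.9 for 48 with ITGAM, 214 with S100A9, 178 with ANXA3, 67 with NLRC4 and 29 with NFAM1. The 3 most like ITGAM were ATP9B (0.988), RPAP2 (0.979) and DNAJC2 (0.973), and those most like S100A9 were CAPN1 (0.996), KDM6A (0.995) and LOC102392387 (0.992). For ANXA3 they were NAB1 (0.997), LOC102403165 (0.996) and POGZ (0.994), and for NLRC4 they were TBC1D4 (0.995), SMC4 (0.992) and LOC102396294 (0.991). NFAM1 was most like LOC102413458 (0.992), PLK3 (0.979) and ICE1 (0.970), all of which had no read in non-pregnant buffaloes. LOC102413458, for example, had 12, 19 and 22 reads in pregnant buffaloes and 0, 0 and 0 in non-pregnant buffaloes.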

How the data were processed

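Circular RNA was sequenced from whole blood of 6 Jianghuai buffaloes. The deposited table gives, per circRNA and library, raw read counts across the back-splice junction and a depth-scaled signal (SRPBM, spliced reads scaled to the mapped reads) made by the authors. The study's methods name CIRI and CIRCExplorer with Tophat-fusion, Tophat2, Bowtie2, Cutadapt and FastQC on the buffalo assembly ASM312139v1, and the submitters' processing notes name fastp, HISAT2, StringTie, edgeR and GRCh38.p10. The sources used here do not say which of them produced the values, and they name no batch. Coordinates are those of the table, whose chromosome names are buffalo RefSeq sequences.

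The members and gene lists were chosen with earlier results of these data known. Counts were tested with edgeR 4.0.16 in R 4.3.3 (quasi-likelihood test, TMM, default filter on low counts, Benjamini-Hochberg adjustment), for 8261 circRNAs and, summed by gene, for 4137 host genes. Calls were made at a log2 fold change of 1 or more in size and an adjusted p below 0.05. Each standard error is the size of the fitted log2 fold change divided by the square root of the test's F statistic. That statistic draws in part on a spread shared across features, so the standard error is not the spread of a gene's own animals alone. CPM are scaled by TMM factors computed separately for circRNAs and for host genes, so the 2 kinds of level are not on 1 scale. DESeq2 1.42.0, limma 3.58.1 on log2(SRPBM + 1), other scalings and filters, a replicate block, sums of circRNAs within 1 or 5 bp and fits without each library were alternatives. Circles were named if they had at least 20 reads, led their gene, passed the filter or shared an end with the leading circle, and up to 4 most read genes per list were eligible to be named, as were the 3 host genes with the highest r. The edgeR fits were also run on simulated counts with planted changes of 2-, 4- and 8-fold. By the adjusted p and among planted changes that passed the filter, the circRNA fit found 0.0% at each fold, and the host gene fit found 0.0, 1.59 and 30.0%. Labels say that each library is a separate animal, and p-values measure the spread between these animals.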

Additional observations from a re-analysis of the deposited data

How the results depend on the processing

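The calls of the whole table depended on the tool. With no filter on low counts edgeR called 600 of 57308 circRNAs, 1 of them among the 83. It also called 86 of 8611 host genes, 1 of them among the 5. The circle was circRNA19915, with all of its 220 reads in non-pregnant replicate 2. The gene was ANXA3, with 762 of its 1386 reads in that library. DESeq2 called 154 circRNAs and 7 host genes and limma 11 and 1. Without 1 library at a time, 0 to 2 host genes were called. Replicate numbers did not pair the samples (correlations of same-numbered libraries -0.15 to -0.02), and with the replicate block 0 circRNAs and 1 host gene, no member, were called. The summed log2 fold change was -0.84 to -0.49 for ITGAM, -1.46 to -0.10 for S100A9, -3.20 to -1.05 for ANXA3, -1.23 to -0.63 for NLRC4 and 5.03 to 7.63 for NFAM1 without 1 library at a time. For ITGAM, S100A9 and ANXA3 the value nearest 0 was that without non-pregnant replicate 2. limma gave 2.38 for NFAM1. Scaling by the library totals implied by SRPBM moved the median of all host genes to 0.16 and gave -0.39 for ITGAM, -0.60 for S100A9, -1.95 for ANXA3, -0.54 for NLRC4 and 5.67 for NFAM1. Among single circles the sign turned for circRNA9925 (0.076 with limma, and -0.58 to 0.13 without 1 library at a time), circRNA14073 (-0.67 to 1.27, below 0 without pregnant replicate 1 and, at -0.13, without non-pregnant replicate 2) and circRNA9928 (-1.66 to 0.45, above 0 without non-pregnant replicate 3). The cause was not tested. S100A9 had 11 circles with at least 5 reads in a library, 10 when those within 1 bp were summed and 6 within 5 bp. The leading circle's share of all reads, without 1 library at a time, was 43.8 to 55.6% for ITGAM, 25.2 to 52.2% for S100A9, 63.0 to 70.4% for ANXA3, 44.5 to 60.8% for NLRC4 and 31.0 to 59.0% for NFAM1. The share of the shorter circle in pairs with 1 common end was lower in every pregnant library in 309 pairs without non-pregnant replicate 2, against 169 with all libraries, an alternative chosen after seeing the data.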
